A study of Mus musculus with 15 samples.

Results

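Gastrin-releasing peptide (Grp) is a secreted peptide of pulmonary neuroendocrine cells and of small cell lung cancer (SCLC), and its level differed widely among mouse SCLC tumours of a single genotype. The comparison here set the 4 Rb/p53 tumours with the highest Grp (Grp-high) against the 4 with the lowest (Grp-low), out of 10 such tumours and 15 samples in all, and read all other genes across that split. The 8 tumours were chosen by their own Grp level, the log2 value of the single probe set read for this gene, so that level is a description and was not tested. The Rb/p53 tumours carry the genotype RbΔ/Δ; p53 Δ/Δ. They arose after an adenovirus carrying Cre recombinase, the enzyme that deletes floxed alleles, was given through the nose, and were dissected from mice aged for 8 to 12 months. The sources used here do not name the promoter that drove Cre, and with it the cell type in which deletion began. All 8 tumours compared share this genotype and induction, and the labels do not give the age of a single mouse. The other samples were 3 Rb/p53/p130 tumours, induced alike and aged for 6 months, and 2 lungs from adult wild-type mice without tumours. Whether each tumour came from its own mouse is not stated in the labels, and the tests therefore cover the spread between the arrayed samples alone, which may in part be technical.

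Neuroendocrine cells store peptides and amines in dense-core granules. Granins such as chromogranin A help to form these granules, prohormone convertases cut precursors inside them, and amidating and trimming enzymes finish the peptides. Grp belongs to the bombesin-like peptides, which act through the receptors Grpr, Nmbr and Brs3 on Gq proteins and phospholipase C, and has long been studied as an autocrine growth factor of SCLC. Arrays give log2 values after RMA, a method that removes background, equalises arrays and combines the probes of a set, so a difference of 1 is a doubling of signal, and values of different probe sets are not on a common scale of abundance.

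In the Grp-high tumours Grp stood at 9.88 (tumour 9), 9.20 (tumour 7), 9.12 (tumour 5) and 8.77 (tumour 4). In the Grp-low tumours it stood at 6.83 (tumour 8), 6.06 (tumour 6), 5.71 (tumour 10) and 5.58 (tumour 1). The means were 9.24 ± 0.47 (SD, n = 4) and 6.05 ± 0.56 (SD, n = 4), a distance of 3.20 on the log2 scale or 9.17-fold. The middle tumours, 2 and 3, stood at 8.58 and 8.49, and were left out by the rule. They lay close below the Grp-high tumours, with a gap of 0.19 from tumour 4 to tumour 2, while the gap from tumour 3 to tumour 8 was 1.66. Normal lung gave 6.56 and 5.25, a range that overlaps the Grp-low tumours, and the Rb/p53/p130 tumours gave 8.09, 6.01 and 7.48 in tumours 11, 12 and 13.

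**Figure D1:**
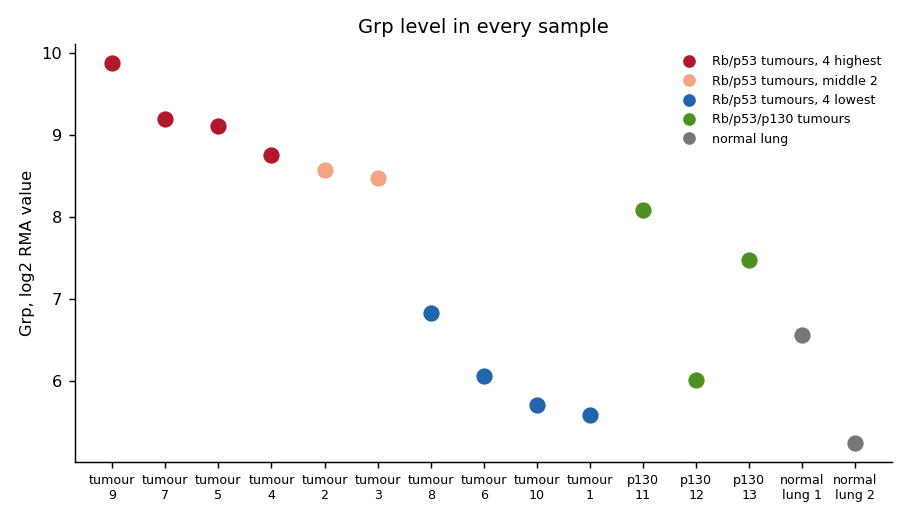
Grp, as the log2 RMA value on the vertical axis, in each of the 15 samples (1 point per sample): Rb/p53 tumours in rank order, then Rb/p53/p130 tumours and normal lungs. The 4 highest Rb/p53 tumours lie at 8.77 or above and the 4 lowest at 6.83 or below, with the middle 2 (8.58 and 8.49) near the highest.

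Few single genes passed the test across this split. Limma's moderated test on the 8 tumours, with Benjamini-Hochberg adjustment over 45036 probe sets, called 0 of 18192 genes higher (0%) and 4 lower (0.022%) in Grp-high tumours at an adjusted p of 0.05. At an unadjusted limma p of 0.05 the counts were 707 higher and 1274 lower. An exact rank-sum test called 0 genes after adjustment, but its smallest p with 4 against 4 tumours is 0.0286. That p can pass only if most probe sets separate the groups, so this 0 is no support. By a plain description, the 4 values of one group lay wholly above those of the other for 449 genes in the direction of Grp (2.47%) and for 716 in the opposite direction (3.94%). The median difference over all genes was -0.02.

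Several sample features were unevenly spread between the groups. The Y-linked gene Eif2s3y stood at 9.83, 10.23 and 8.92 in Grp-high tumours 9, 7 and 5 and at 3.86 in tumour 4, whereas of the Grp-low tumours tumour 10 had 9.63 and tumours 8, 6 and 1 had 3.76 to 4.01. With its level as a covariate, limma called 0 genes in either direction, and the adjusted p of Rgs4 was 0.226. The differences of the 4 genes called without it, given below, were then -2.59 (Rgs4), -1.69 (Ctxn2), -1.60 (Serpinb8) and -1.18 (B230217C12Rik). The difference between the 3′ and 5′ Gapdh control probe sets, a measure of RNA shortening, ran from -0.00 to 0.06 in Grp-high and from -0.07 to 0.24 in Grp-low tumours, and as a covariate also left 0 calls, with Rgs4 at -2.73 and an adjusted p of 0.0551 in limma. Mean levels of resident-tissue marker lists overlapped: 6.94 to 8.24 against 7.38 to 8.78 for 22 endothelial genes, 9.15 to 11.32 against 9.05 to 11.64 for 14 alveolar type 2 genes, and 7.81 to 9.75 against 8.63 to 10.51 for 14 club cell genes. Their medians were -0.58, -0.46 and -0.71, with 21, 13 and 12 members respectively lower in Grp-high tumours. Limma called 0 of their members, beside 0% higher and 0.022% lower of all genes. With the mean of the alveolar and endothelial lists as a covariate, limma called 1 gene higher and 5 lower. Hepatocyte genes averaged 6.18 in Grp-low tumour 10 and 5.32 to 5.94 in the other 7. In such bulk tissue, fewer cells of a type and less RNA per cell cannot be told apart, and the part of these features in the gene differences below was not tested beyond these fits.

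The 4 genes called lower in Grp-high tumours were Rgs4, Ctxn2, Serpinb8 and B230217C12Rik. Rgs4 encodes a GTPase activator that shortens signalling by Gi proteins and by Gq, to which bombesin receptors couple. It stood at 6.89, 6.85, 7.54 and 7.46 in tumours 9, 7, 5 and 4, and at 10.42, 9.62, 9.88 and 9.72 in tumours 8, 6, 10 and 1. No Grp-high tumour came within 2 log2 units of a Grp-low tumour. Rgs4 fell by 2.72 ± 0.23 (SE) on the log2 scale, or 6.61-fold (limma adjusted p = 0.0338). Its 3 probe sets all separated the groups, with differences of -1.85 to -2.72, and 2 were called.

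Ctxn2, which encodes the small membrane protein cortexin 2, stood at 5.86, 6.19, 6.41 and 6.42 in the Grp-high tumours, in the same order, and at 7.72, 7.93, 8.04 and 8.16 in the Grp-low tumours. It fell by 1.74 ± 0.16 (SE, limma adjusted p = 0.0338). Serpinb8, a serine protease inhibitor, had 6.33, 5.99, 5.97 and 6.34 against 7.43, 7.67, 7.96 and 7.89. It fell by 1.58 ± 0.16 (SE, limma adjusted p = 0.0477), and its second probe set, with a difference of -2.07, also kept the groups apart without passing the test. B230217C12Rik, a gene known by its clone name, had 8.27, 8.25, 8.23 and 8.18 against 9.16, 9.36, 9.45 and 9.48, a fall of 1.13 ± 0.10 (SE, limma adjusted p = 0.0338). Its second probe set differed by only -0.10 ± 0.10 (SE, limma adjusted p = 0.791). In RefSeq annotation of GRCm38.p6 these genes lie at chr1:169741477-169747642 (Rgs4), chr2:125136066-125147843 (Ctxn2), chr1:107589926-107608978 (Serpinb8) and chr11:97841135-97843437 (B230217C12Rik).

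The middle tumours, whose Grp was almost that of the Grp-high group, did not line up with it in Rgs4. Tumour 2 had 11.17, the highest Rgs4 value of the 10 Rb/p53 tumours, and tumour 3 had 8.38. For Serpinb8 tumour 2 (5.95) lay with the Grp-high and tumour 3 (7.40) next to the Grp-low tumours, and B230217C12Rik gave the same split, 7.82 and 9.09. Ctxn2 was intermediate in both, at 6.94 and 7.21. With all 6 upper tumours against the lower 4, limma called 0 genes, and the adjusted p of Rgs4 was 0.576. The calls were lost with smaller groups: leaving out tumour 9, 7, 5, 4, 6, 10 or 1 left 0 of the 4 genes called (adjusted p of Rgs4 0.0782 to 0.163), and leaving out tumour 8 kept all 4 (0.0326). In Rb/p53/p130 tumours 11, 12 and 13 Rgs4 stood at 10.21, 10.45 and 7.84, and in normal lung at 6.81 and 8.13.

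**Figure D2:**
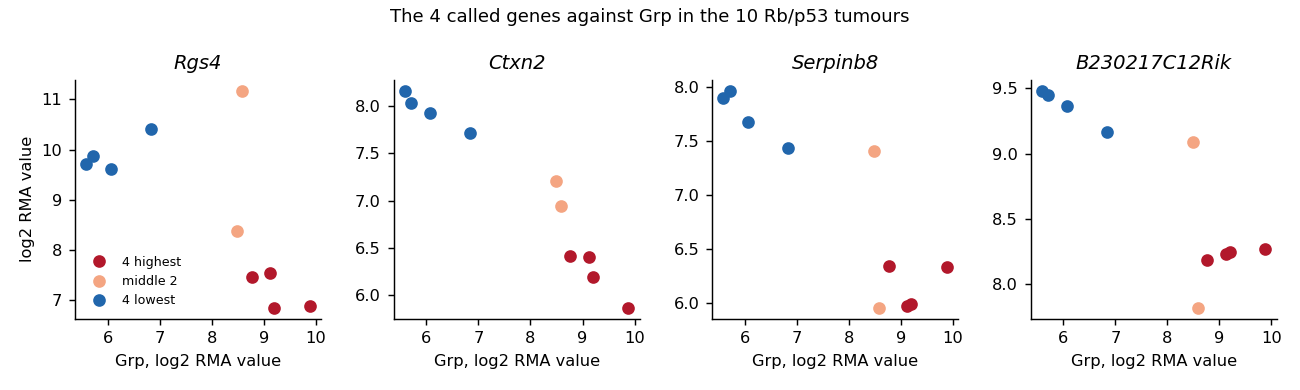
Log2 RMA value of Rgs4, Ctxn2, Serpinb8 and B230217C12Rik (vertical axes) against that of Grp (horizontal axes) in the 10 Rb/p53 tumours, 1 point per tumour. The 4 tumours lowest in Grp lie above the 4 highest in each panel. The middle 2 lie far from each other in Rgs4 (11.17 and 8.38), Serpinb8 and B230217C12Rik, and both lie between the groups in Ctxn2.

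Granule genes were mostly lower where Grp was high. Of 24 measured genes of granins and prohormone processing, 20 were lower in Grp-high tumours and 4 higher, with a median difference of -0.74 beside -0.02 over all genes. Limma called 0 of the 24, while 6 (25.0%) kept the groups apart in the lower direction, beside 3.94% of all genes, and 0 in the upper. Their mean level was 9.02 to 9.58 in the Grp-high and 9.95 to 10.40 in the Grp-low tumours, and the middle tumours lay between at 9.75 and 9.84. The list was chosen with earlier results of these tumours known.

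The granins Chga, Chgb and Scg2 were 3 of these 6. Chromogranin A (Chga) stood at 11.79, 10.92, 10.71 and 11.81 in tumours 9, 7, 5 and 4, and at 12.61, 12.23, 13.04 and 12.53 in tumours 8, 6, 10 and 1. Chromogranin B (Chgb) had 11.05, 9.98, 11.79 and 11.36 against 12.30, 12.83, 12.48 and 13.36. Secretogranin II (Scg2) had 12.30, 11.87, 10.08 and 10.87 against 12.75, 13.78, 13.87 and 13.16. In none of the 3 did a Grp-high tumour reach the lowest Grp-low tumour, yet all were abundant in both groups, far above the 4.18 to 6.11 of normal lung. The differences were -1.29 ± 0.29 for Chga, -1.70 ± 0.39 for Chgb and -2.11 ± 0.49 for Scg2 (SE), and the limma adjusted p-values of 0.241, 0.243 and 0.243 did not pass. Tumour 7 was lowest in Chgb and tumour 5 in Chga and Scg2.

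The 250 bases before the RefSeq transcription start of these granins, and of Rgs4, are shown because the 3 granins lay lower together and because granin promoters are known to respond to cyclic AMP through the CRE, an octamer bound by CREB. Both strands were searched for the full octamer TGACGTCA and for its first 5 letters TGACG, which the octamer holds on each strand. Capitals mark each TGACG on either strand. The windows, from GRCm38.p6, were chr2:132781392-132781641 (plus strand), chr1:79440027-79440276 (minus strand), chr12:102554691-102554940 (plus strand) and chr1:169747643-169747892 (minus strand), each printed in the direction of transcription.
Chgb: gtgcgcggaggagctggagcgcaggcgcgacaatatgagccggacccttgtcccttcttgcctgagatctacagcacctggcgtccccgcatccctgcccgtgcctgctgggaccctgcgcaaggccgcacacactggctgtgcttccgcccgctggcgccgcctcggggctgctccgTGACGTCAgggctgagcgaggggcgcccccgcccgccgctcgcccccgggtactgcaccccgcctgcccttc
Scg2: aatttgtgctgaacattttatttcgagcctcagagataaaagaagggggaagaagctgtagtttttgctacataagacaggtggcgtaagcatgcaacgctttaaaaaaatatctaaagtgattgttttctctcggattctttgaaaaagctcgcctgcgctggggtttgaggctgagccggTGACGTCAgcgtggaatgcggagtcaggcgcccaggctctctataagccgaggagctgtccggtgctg
Chga: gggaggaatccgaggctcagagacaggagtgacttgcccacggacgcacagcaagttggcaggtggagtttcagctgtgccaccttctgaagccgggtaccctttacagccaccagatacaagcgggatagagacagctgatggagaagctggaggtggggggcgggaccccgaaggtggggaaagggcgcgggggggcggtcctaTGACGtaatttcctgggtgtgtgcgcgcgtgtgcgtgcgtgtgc
Rgs4: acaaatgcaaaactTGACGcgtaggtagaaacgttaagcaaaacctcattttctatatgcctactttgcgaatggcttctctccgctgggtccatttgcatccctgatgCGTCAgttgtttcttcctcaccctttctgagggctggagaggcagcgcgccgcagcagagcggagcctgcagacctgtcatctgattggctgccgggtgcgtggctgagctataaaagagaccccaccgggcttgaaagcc
The full octamer began at -72 in Chgb and at -68 in Scg2. Chga held TGACG at -44, followed by TAA where the octamer has TCA, so its TGACGTAA was near the octamer but no exact match. Rgs4 held TGACG at -236 and, on the opposite strand, at -141. TGACGTCA was present in 1.55% and TGACG in 17.8% of 32851 windows of this length in the table, and 1.77% of its 27025 genes held TGACGTCA in at least 1 window. Of 21 genes of the granule list with a window, 3 held the octamer, namely Chgb, Scg2 and Pcsk1, and 2 of the 6 genes that kept the groups apart. A match describes letters only and shows no binding.

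Other granule proteins repeated the pattern of the granins in part. Scg5, the chaperone 7B2 of the convertase Pcsk2, stood at 11.84, 11.35, 11.74 and 11.14 against 11.97, 13.11, 12.65 and 13.16, a difference of -1.20 ± 0.28 (SE, limma adjusted p = 0.251). Ptprn2, a granule membrane protein of the phosphatase family, had 10.58, 10.26, 10.50 and 10.88 against 11.50, 11.57, 11.85 and 11.86. Its groups were 0.62 apart at the nearest values, and the difference of -1.14 ± 0.16 (SE, limma adjusted p = 0.131) did not pass. It passed in the fit of all 15 arrays (limma adjusted p = 0.0207) and with Grp as a continuous measure over the 10 tumours (0.0292). In the other 24 of 26 alternatives, which overlap in part, it did not (0.0765 to 0.479). The 0.479 came from the exact rank-sum test, which could not call a gene here. Nucb2, the precursor of nesfatin, had 9.28, 9.09, 9.28 and 9.24 against 9.33, 10.09, 9.84 and 9.59, with 0.05 between the groups. Scg5, Ptprn2 and Nucb2 were singled out after their values were seen, as were Resp18 and Ptprn below.

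The processing enzymes differed less. Pcsk1, the convertase PC1/3, had 11.27, 10.06, 11.68 and 11.08 against 11.14, 12.28, 12.31 and 11.73, so the groups overlapped (-0.84 ± 0.38, SE, limma adjusted p = 0.520). The amidating enzyme Pam differed by -0.92 ± 0.31 and the carboxypeptidase Cpe by -0.21 ± 0.18 (SE), with limma adjusted p-values of 0.372 and 0.762. Scg3, a granin that binds Chga in the granule membrane, was nearly level at 11.79 ± 0.27 and 12.02 ± 0.17 (SD, n = 4 each). Resp18 and Ptprn, both granule proteins, had differences of -1.90 ± 0.59 and -1.26 ± 0.56 (SE) with overlapping groups (limma adjusted p = 0.340 and 0.512). Pcsk2 was not analysed here.

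**Figure D3:**
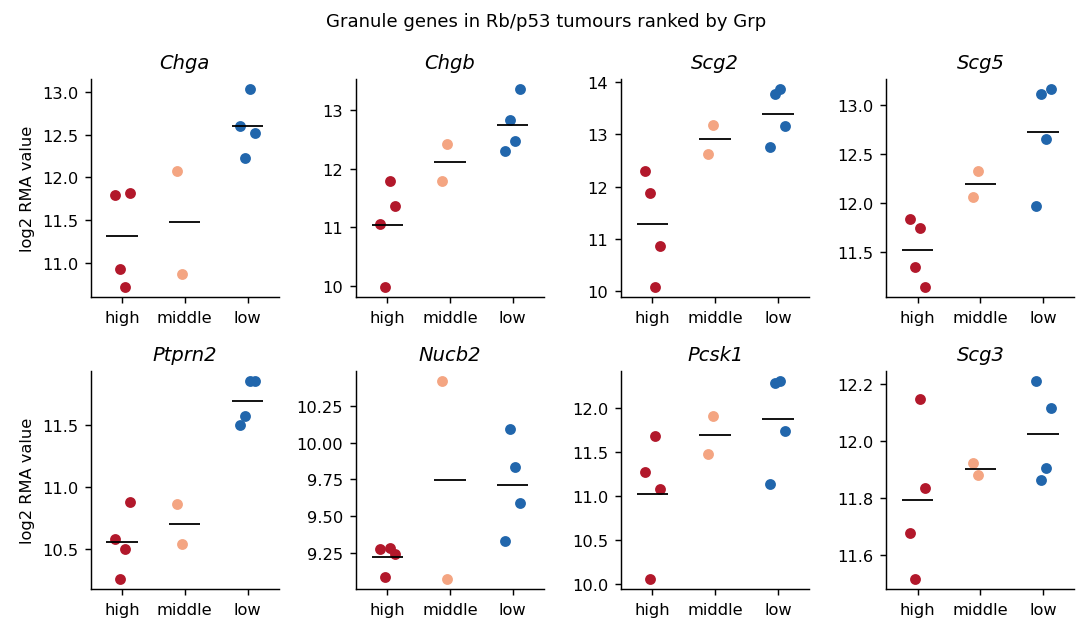
Log2 RMA value of 8 granule genes in the Rb/p53 tumours with high, middle and low Grp (1 point per tumour, n = 4, 2 and 4; horizontal lines are means; each panel has its own vertical scale, which does not start at 0). Chga, Chgb, Scg2, Scg5, Ptprn2 and Nucb2 keep the high and low groups apart, while Pcsk1 and Scg3 overlap.

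No other neuropeptide gene separated the groups. Of 52 measured neuropeptide and peptide hormone genes, 28 were higher and 24 lower in Grp-high tumours, 0 were called and 0 kept the groups apart in either direction. Over all genes 0% were called higher and 0.022% lower, and 2.47% were apart above and 3.94% below. Beside shares this small, counts of 0 say little about the list. The median difference of the 52 was 0.03. Most were dim: 43 of the 52 stayed below a log2 value of 8 in all 8 tumours. Nmb, the other bombesin-like peptide, stood at 6.93, 7.31, 6.83 and 6.63 in the Grp-high and 7.68, 6.79, 6.80 and 7.18 in the Grp-low tumours. Those ranges overlapped each other and the 7.12 and 7.08 of normal lung. Cck, Sst, Tac1, Vip, Gal, Nts, Nmu, Npy, Pomc and Penk differed by -0.42 to 0.38, and the lowest limma adjusted p among them was 0.677.

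Of the 9 peptides that reached 8 in at least 1 of the 8 tumours, 4 were higher and 5 lower on average in Grp-high tumours, and none passed the test. The highest difference was that of the natriuretic peptide gene Nppa (1.26 ± 0.86, SE, limma adjusted p = 0.679), and the lowest were those of Cartpt, Calcb and Iapp. Nppa also stands in the list of cardiac muscle markers. That list averaged 7.16 in tumour 4, 5.51 to 5.89 in tumours 9, 7 and 5, and 5.46 to 6.42 in the Grp-low tumours. In normal lung it averaged 9.43 and 9.44, and the part of cardiac tissue in the Nppa difference was not tested. Calcb, the beta form of calcitonin gene-related peptide, had 8.09, 7.99, 8.70 and 7.88 against 8.35, 9.23, 9.98 and 9.55, a difference of -1.12 ± 0.34 (SE, limma adjusted p = 0.329). Only tumour 8 among the Grp-low tumours lay within the Grp-high range. Cartpt, the precursor of the peptide CART, had 8.54, 5.80, 5.32 and 8.29 against 8.39, 9.60, 10.55 and 9.76 (-2.59 ± 0.81, SE, limma adjusted p = 0.340). Amylin (Iapp) was abundant in every tumour, at 11.13, 10.65, 9.99 and 12.20 against 12.89, 12.71, 12.56 and 9.88, and differed by -1.02 ± 0.73 (SE, limma adjusted p = 0.695). Here tumour 1 had the lowest value of all 8. Nppa, Cartpt and Iapp were picked after their values were seen.

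The receptors of bombesin-like peptides were dim in both groups. Grpr stood at 4.61, 5.02, 4.90 and 4.64 in Grp-high and 4.74, 4.91, 4.75 and 4.78 in Grp-low tumours, beside 4.90 and 4.94 in normal lung. Nmbr lay between 5.11 and 5.42 and Brs3 between 5.35 and 6.78 over the 8 tumours. Their differences were -0.00 ± 0.12, -0.13 ± 0.09 and 0.01 ± 0.27 (SE, limma adjusted p = 0.997, 0.697 and 0.996). Grpr and Nmbr lay close to the highest lower quartile of the arrays, 5.05, and cannot be read as expression, and Brs3 lay between 5.96 and 6.17 in normal lung.

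Of 18 measured genes of the list of these receptors and their signalling, 15 were lower and 3 higher in Grp-high tumours, with a median of -0.14. The 18 include the receptors themselves, and the dim Grpr and Nmbr count among the lower genes. Rgs4 was the 1 called, beside 0.022% of all genes called lower. Plcb1, a phospholipase C that Gq activates, also kept the groups apart. These 2 are 11.1% of the list, beside 3.94% of all genes. Plcb1 had 8.46, 8.60, 7.39 and 7.60 against 9.00, 9.21, 9.23 and 9.85 (-1.31 ± 0.31, SE, limma adjusted p = 0.253). Of its 5 probe sets 4 were lower and 2 kept the groups apart, with a range of -1.31 to 0.08. The Gq subunits were nearly equal, with Gnaq at 10.4 in both groups and Gna11 at 11.2 against 11.3. Among 36 receptors of other neuropeptides 17 were higher and 19 lower, with a median of -0.02. Ramp3, which pairs with calcitonin-family receptors, was the 1 lower receptor gene that kept the groups apart (-0.57 ± 0.12, SE, limma adjusted p = 0.231), and the neurokinin receptor Tacr3 the 1 higher, with a difference of 0.19 ± 0.09 (SE) at a dim level. Each is 2.78% of the list, near the shares of 3.94% lower and 2.47% higher over all genes. Ntsr2, a neurotensin receptor picked after its values were seen, stood at 12.97 in tumour 7 and at 5.94 to 6.93 in the other 7 tumours.

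Lineage transcription factors were largely level. Of 45 measured, 28 were higher and 17 lower in Grp-high tumours, 0 were called and the median was 0.06. Insm1, a zinc-finger factor of neuroendocrine cells, stood at 12.27, 12.23, 11.37 and 11.62 against 12.44, 11.72, 11.35 and 11.81 (0.04 ± 0.28, SE, limma adjusted p = 0.979). Foxa2 and Sox2 differed by -0.16 ± 0.19 and -0.42 ± 0.34 (SE), with overlapping groups. Neurod1 was dim in 7 of the 8 tumours, at 4.32 to 4.74, and 6.40 in tumour 8. Pou2f3, the factor of tuft-like tumours, lay between 6.51 and 7.03 in the 8 tumours, beside 6.77 and 7.10 in normal lung.

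Nfib, a nuclear factor gene amplified in some mouse and human SCLC, was the 1 factor that kept the groups apart (2.22% of the list, beside 2.47% of all genes), so the count is no result about the list. Its values were 11.73, 12.19, 12.01 and 11.86 in Grp-high and 11.24, 10.81, 11.20 and 10.68 in Grp-low tumours, a difference of 0.97 ± 0.16 (SE, limma adjusted p = 0.155). All 7 of its probe sets were higher, by 0.09 to 1.42, and 6 kept the groups apart. The middle tumours split, with 10.92 in tumour 2 and 11.75 in tumour 3, and normal lung had 11.59 and 11.72, within the span of the tumours. Mycl, the MYC family member first found in SCLC, had 13.36, 10.39, 11.57 and 13.16 against 10.42, 9.39, 10.41 and 10.67 (1.90 ± 0.65, SE, limma adjusted p = 0.379). Tumour 7 lay among the Grp-low tumours in Mycl. That same tumour had the highest Mycn, 12.19, where the other 7 had 6.11 to 8.90.

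Neuronal and neuroendocrine effector genes were mixed. Of 56 measured, 18 were higher and 38 lower in Grp-high tumours, 0 were called, and the median was -0.17. The groups were apart for 2 above (3.57%) and 4 below (7.14%), beside 2.47% and 3.94% of all genes. General markers overlapped: Syp differed by -0.38 ± 0.20, Ncam1 by -0.36 ± 0.24, Uchl1 by 0.13 ± 0.29, Snap25 by -0.22 ± 0.33 and Dll3 by -0.40 ± 0.23 (SE), and the lowest limma adjusted p of these was 0.588. The vesicular monoamine transporter Slc18a1 had 8.90, 8.35, 7.78 and 8.40 against 10.15, 9.78, 10.73 and 10.33, a difference of -1.89 ± 0.27 (SE, limma adjusted p = 0.145). It lay apart in the brightest of its 3 probe sets, and the others differed by -1.06 and -0.07. The cell adhesion gene Nrcam had 8.62, 7.17, 7.61 and 8.25 against 8.87, 10.11, 8.87 and 10.81 (-1.75 ± 0.50, SE, limma adjusted p = 0.309).

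Amine synthesis varied by enzyme. Tph1, the rate-limiting enzyme of serotonin synthesis outside the brain, had 9.46, 4.92, 7.48 and 7.96 against 9.07, 11.74, 12.69 and 10.21. Tumour 9 lay above tumour 8, so the groups overlapped, and the difference of -3.47 ± 1.06 (SE, limma adjusted p = 0.329) did not pass. Tyrosine hydroxylase (Th) had 6.43, 5.40, 5.67 and 5.38 against 9.36, 6.23, 8.33 and 7.79 (-2.21 ± 0.60, SE, limma adjusted p = 0.292). Ddc, which acts after both enzymes, stood at 13.78 ± 0.27 and 13.65 ± 0.17 (SD, n = 4 each) in its brightest probe set, and a second, dimmer one differed by 1.25 ± 0.43 (SE, limma adjusted p = 0.381). Neuron-specific enolase (Eno2) had 7.32, 6.40, 7.41 and 7.76 against 8.64, 9.04, 8.64 and 8.10, and the vesicle GTPase Rab3c 10.42, 9.85, 9.28 and 10.05 against 10.70, 10.84, 11.37 and 11.67. Both kept the groups apart, by -1.39 ± 0.31 and -1.25 ± 0.29 (SE, limma adjusted p = 0.234 and 0.245). Tph2, the neuronal form of the hydroxylase, was higher at a dim 4.44 against 3.77. Tph1, Th, Eno2, Rab3c and Tph2 were singled out after their values were seen.

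**Figure D4:**
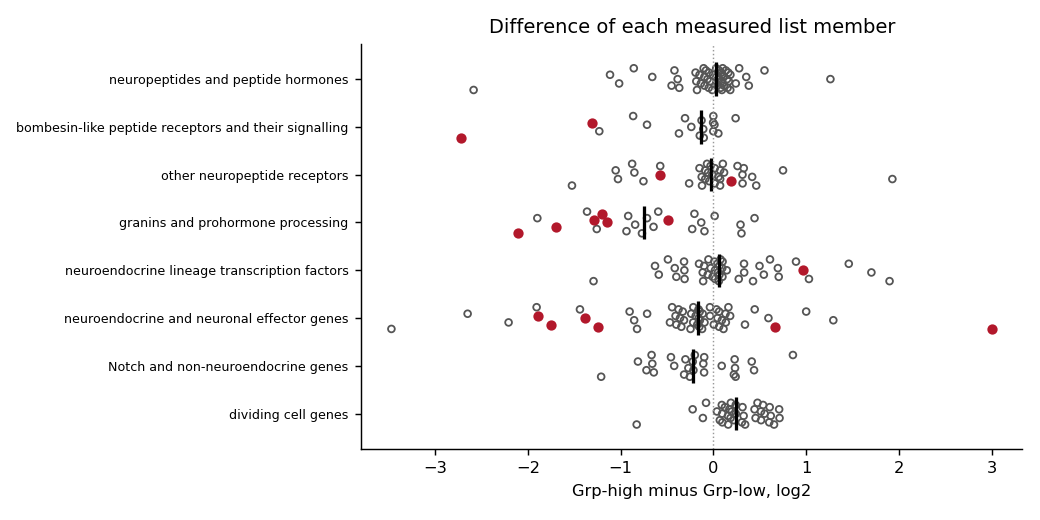
Difference in log2 RMA value, Grp-high minus Grp-low tumours (4 against 4), for each measured gene of 8 lists; filled points are genes whose groups do not overlap, open points the others, and black bars list medians (vertical scatter within a list has no meaning). Granins and prohormone processing have the lowest median, -0.74, and neuropeptides and peptide hormones lie at 0.03.

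Genes of Notch signalling and the non-neuroendocrine state were more often lower than higher in Grp-high tumours: of 26, 8 were higher and 18 lower. Their median was -0.22. The groups were apart for 0 of the 26, beside 2.47% higher and 3.94% lower of all genes, so the count is no result about the list. With the mean of the alveolar and endothelial lists as a covariate the median of the 26 was 0.07, and without tumour 10 it was 0.00. Notch1 differed by -0.64 ± 0.28, Hes1 by -0.42 ± 0.44, Rest by -0.22 ± 0.36 and Yap1 by -0.11 ± 0.55 (SE), and none was called. Of 36 genes of dividing cells 32 were higher and 4 lower in Grp-high tumours, with a median of 0.24. Here 0 were called and 0 kept the groups apart. Beside the shares of all genes, these counts too are no result about the list. Their median was 0.04 with that covariate and 0.16 without tumour 10. Mki67 had 13.00, 13.40, 12.11 and 12.76 against 12.79, 12.19, 12.33 and 12.66, within the spread of each group (0.32 ± 0.27, SE, limma adjusted p = 0.743).

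Over all genes, those highest in Grp-high tumours among the genes that kept the groups apart were Foxd1, Tmem54, Elavl2, Tmprss13, Igfbp2, Bmp8b, Cpne7, Sim2, Fam169a and Mtm1, and none passed the test. Foxd1, a forkhead factor of kidney stroma and retina, had 8.06, 7.77, 9.29 and 9.24 against 5.24, 4.74, 4.83 and 6.22, a difference of 3.33 ± 0.45 (SE, limma adjusted p = 0.128). Its middle tumours, at 7.80 and 9.84, lay in the Grp-high range, and the Rb/p53/p130 tumours gave 5.94, 4.19 and 9.19. Elavl2, a neuronal RNA-binding protein, had 12.05, 12.62, 11.96 and 11.59 against 10.94, 10.99, 8.61 and 5.67, so its difference of 3.01 ± 1.08 (SE, limma adjusted p = 0.403) rested largely on tumours 10 and 1. The transmembrane protease Tmprss13 had 8.02, 7.95, 10.20 and 8.85 against 5.40, 6.28, 6.76 and 5.61 (2.74 ± 0.52, SE, limma adjusted p = 0.184). Igfbp2, which binds insulin-like growth factors and is also a marker of alveolar type 1 cells, had 11.59, 11.49, 10.81 and 10.37 against 9.46, 9.31, 8.89 and 6.95. It differed by 2.41 ± 0.56 (SE), while 13 of the 14 measured alveolar type 1 markers were lower.

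On the lower side the rule took the 4 called genes above first, whatever their size, and then the 6 largest differences among the other genes that kept the groups apart: AW551984, Gng3, Tspyl3, Nell1, Hs3st1 and Galnt13, which did not pass the test. Gng3, a G protein gamma subunit of neurons, was the nearest to it. It had 5.68, 5.50, 5.70 and 5.82 against 9.21, 7.59, 8.49 and 8.81, a difference of -2.85 ± 0.31 (SE, limma adjusted p = 0.0658), and 4.91 and 7.00 in the middle tumours. Hs3st1, a heparan sulfate sulfotransferase, had 7.04, 6.40, 6.22 and 5.92 against 8.81, 8.67, 8.98 and 10.01 (-2.72 ± 0.34, SE, limma adjusted p = 0.0931). Nell1, a secreted protein that promotes bone formation, was at 4.08 to 4.69 in the Grp-high and 6.17 to 8.08 in the Grp-low tumours (-2.72 ± 0.36, SE, limma adjusted p = 0.128), and its second probe set differed by -0.10. AW551984, Tspyl3 and Galnt13 differed by -3.33 ± 1.00, -2.73 ± 0.57 and -2.65 ± 0.76 (SE).

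**Figure D5:**
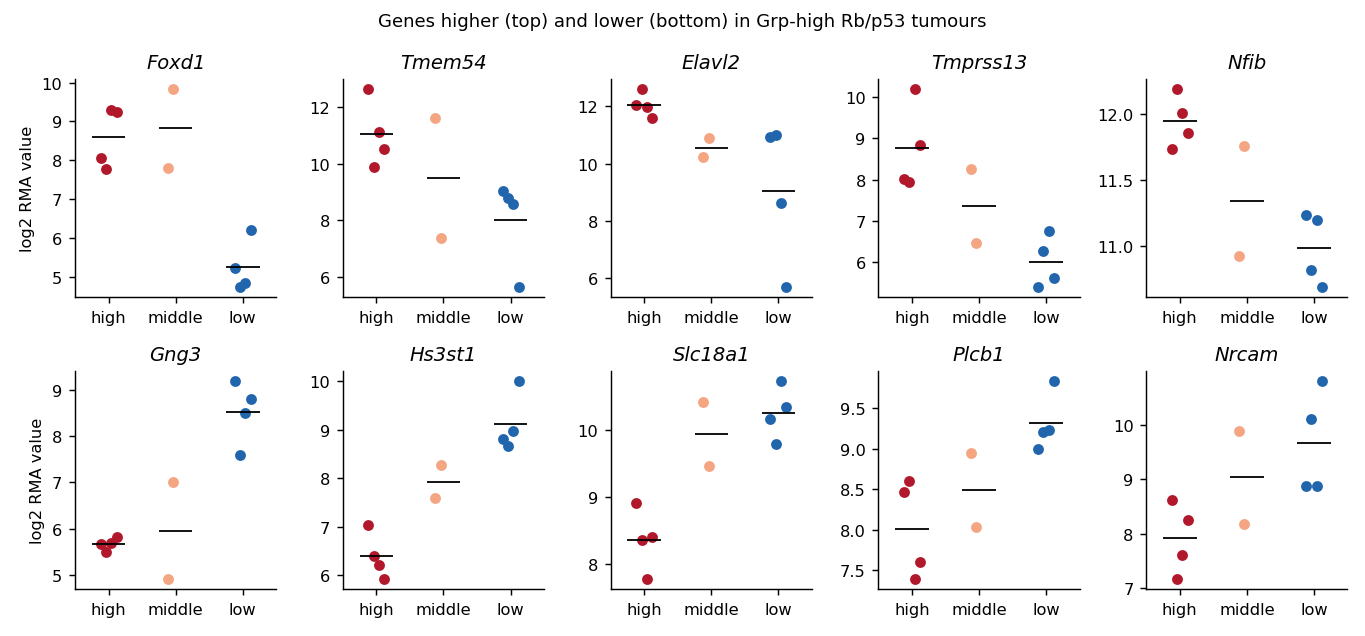
Log2 RMA value of 5 genes higher and 5 lower in Grp-high tumours, in Rb/p53 tumours with high, middle and low Grp (1 point per tumour, n = 4, 2 and 4; lines are means; each panel has its own vertical scale, which does not start at 0). High and low groups do not overlap in any panel, and the middle tumours vary, from near the high group in Foxd1 to near the low group in Slc18a1.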

How the data were processed

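Trizol RNA was amplified in 2 rounds with a RiboAmp kit before hybridisation to Affymetrix mouse arrays, per the labels' protocols. The authors deposited log2 values, which the submitters' processing notes credit to RMA without a version. RMA brings array distributions close together (array medians 6.58 to 6.68) and can hide a shift of most genes, and amplification favours 3′ ends. Scan dates and batches were not given in those sources.

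The test covered 45036 of 45101 probe sets, all but 64 controls and that of Grp. A single gene symbol was listed for 34945 probe sets, several symbols for 932 (not named) and no symbol for 9160. Each gene was read through its brightest probe set (highest mean over 15 arrays), which gave 18192 genes besides Grp. Tumours were ranked by Grp, and the 4 highest and 4 lowest were compared with limma 3.58.1 (lmFit and eBayes) in R 4.3.3, with Benjamini-Hochberg adjustment over all tested probe sets and a threshold of 0.05. The fit was tested on simulated data. Errors are the SE of a difference or the SD of a level. The number of arrays limits the precision.

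Named genes were Grp, a panel of 46 genes of which 44 were measured, up to 10 genes in each direction that kept the groups apart (called genes first, then by size of difference), up to 3 such genes per list, and genes stated as chosen after their values were seen. The text gives values for only some of them. The 29 lists had 627 entries, of which 576 were measured, and some genes stand in more than 1 list. The ranking, panel and lists were chosen with earlier results of these data known. Promoter windows are from RefSeq, GRCm38.p6, and all 4 genes looked up matched by symbol. Alternatives changed the number of tumours per group, the samples in the fit, normalisation, filters, prior, array weights, covariates, probe set summary and test, and left out each tumour. The 6 against 4 tumours and the Eif2s3y covariate were chosen after seeing the data. Figures used matplotlib 3.10.9 in Python 3.11.15.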

Additional observations from a re-analysis of the deposited data

Results flagged for a closer look

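Single tumours stood apart from the other 3 of their group in 11 of 184 groups of 4 checked among the named genes. Chance alone gives about 1 in 20, which is near this count, so the count is no result about the tumours. Iapp, Ntsr2, Eif2s3y and Xist were named after their values were seen, so their flags are descriptions only. Tumours were checked by the gap of the extreme value to its neighbour as a share of the range, against Dixon's critical value.

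In the Grp-low group, tumour 8 was highest in 3 neural genes, with Cck at 6.35 (others 5.02 to 5.11), Nts at 6.56 (4.84 to 5.12) and the neurogenic factor Neurod1 at 6.40 (4.41 to 4.74). Tumour 1 was apart in 3 genes: Tmem54 at 5.65 (others 8.57 to 9.03), Ramp3 at 7.41 (7.07 to 7.09) and Iapp at 9.88 (12.56 to 12.89). Tumour 10 was apart in the sex-linked genes Eif2s3y, at 9.63 (3.76 to 4.01), and Xist, at 7.12 (13.43 to 14.02).

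In the Grp-high group, tumour 7 had Ntsr2 at 12.97 (others 6.68 to 6.93). Tumour 5 had the tachykinin gene Tac1 at 5.26 (4.02 to 4.13), and tumour 9 had Brs3 at 5.87 (6.11 to 6.13).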

How the results depend on the processing

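No paired analysis was possible because Grp-high and Grp-low tumours share no replicate number. Against 0 genes called higher and 4 lower, the counts were 10 and 21 with all 15 arrays in the fit, 1 and 4 with 5 against 5 tumours and with Grp as a continuous covariate, 1 and 7 for probe sets brighter than the median, 3 and 8 with array weights, and 1 and 5 with the resident lung covariate. With 3 against 3 tumours, the Gapdh covariate, the mean of probe sets, the exact rank-sum test (smallest p 0.0286), without the tumour highest in hepatocyte markers (tumour 10), and, chosen after seeing the data, with 6 against 4 tumours or the Eif2s3y covariate, 0 genes were called in either direction. Of these, the rank-sum test could not have called a gene, for the reason given above. A trended and robust prior called 0 and 1. Renormalising to equal quantiles, median centring, omission of cross-hybridising probe sets and a minimum change of 1 called 0 higher and 4 or 5 lower. Leaving out each tumour in turn gave 0 to 1 higher and 0 to 6 lower. Genes that kept the groups apart numbered 1165, 3103 with 3 against 3, 516 with 5 against 5 and 377 with 6 against 4 tumours, counts that fall as groups grow, and 1560 to 2443 with a tumour left out. Rgs4, Serpinb8 and B230217C12Rik were each called in 9 and Ctxn2 in 10 of 26 alternatives, with the same sign in all. The 26 are not all separate checks. Leaving out tumour 10 and leaving out the tumour highest in hepatocyte markers are the same fit. The minimum change of 1 reuses the p-values of the main fit. Of 92 named genes, the 42 that kept the groups apart held their sign in every alternative that measured them, and 19 of the other 50 changed it in at least 1. Values that do not overlap fix the sign in advance wherever tumours are only left out, so the count for the 42 is no support. The median of the granule list stayed between -0.84 and -0.48, the latter without tumour 7. The cause of the other shifts was not tested. Dim probe sets, including the bombesin receptors, limit what can be read.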

Other observations

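Of 18 immediate early genes 4 were higher and 14 lower in Grp-high tumours (median -0.24), of 16 interferon-stimulated genes 13 were higher and 3 lower (median 0.11), and of 17 hypoxia and glycolysis genes 13 were higher and 4 lower (median 0.15), with 0 called in these lists. Ndrg1, a gene induced by low oxygen, kept the groups apart, at 10.13, 10.76, 10.73 and 10.23 in tumours 9, 7, 5 and 4 against 9.98, 9.78, 9.88 and 10.01 in tumours 8, 6, 10 and 1 (0.55 ± 0.17, SE, limma adjusted p = 0.326). It was the 1 of 17 in its list (5.88%, beside 2.47% of all genes), so the count is no result about the list. Macrophage and dendritic, neutrophil, T and NK, and B and plasma cell lists had medians of -0.13, -0.18, 0.02 and -0.09, with 0 members apart. Over all genes 2.47% were apart above and 3.94% below, and 0% were called higher and 0.022% lower. Beside such shares, counts of 0 apart or 0 called say little about any list of this paragraph. Medians were -0.23 for ciliated, -0.08 for tuft, 0.08 for fibroblast and smooth muscle, -0.03 for mesothelial, -0.06 for cardiac, -0.14 for hepatocyte, -0.08 for glial, 0.00 for erythroid and 0.01 for adipocyte genes, and 1.86 for the 4 sex-linked genes, with 0 called. The tuft, fibroblast, hepatocyte and glial lists each had 1 member apart, lower in Grp-high tumours. These were 10.0%, 4.55%, 7.69% and 10.0% of the lists, beside 3.94% of all genes.

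Genes called in alternative settings included Rpl12, a ribosomal protein, called higher with 5 against 5 tumours (1.33), with array weights (1.46), with all 15 arrays and among brighter probe sets (1.37 in both), and Clgn, a chaperone, called lower with Grp as a continuous covariate (-2.37), all 15 arrays (-2.44) and array weights (-2.57). These genes were picked after their values were seen.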
